A study of Mus musculus with 3 samples.

Results

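Single-library regions are stretches of the mouse genome where Flag-tagged Bcl11a CUT&Tag gave a called peak in 1 of 3 libraries and in neither of the other libraries. The members were chosen by the peak calls: peaks of the 3 lists on chromosomes 1 to 19, X and Y that shared at least 1 bp were merged, and a joined region with a peak of exactly 1 library was a member. Of 60816 joined regions, 27998 (46.0%) were members, against 9831 regions with peaks of 2 libraries and 22987 with peaks of all 3. Library 1 held 8998 of them, library 2 held 6635 and library 3 held 12365. Each member consisted of 1 peak. The peak calls themselves chose the members, so their number, strength and width are given as descriptions without a test. Gene annotation, chromosome and promoter sequence were not used in the choice.

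The study placed a 3xFlag tag by knock-in at the N-terminus of Bcl11a in mice, per the series' design text, to learn how the protein acts in blood formation. The 3 libraries were numbered replicates of 1 group, made from sorted bone marrow LSK cells, and the genotype label of each read wildtype. The age and sex of the mice are not given in the sources used here. Nothing in the labels placed the libraries in separate animals, and an SD across libraries therefore measures only the spread between these libraries. Libraries without the tag, without the antibody or of input DNA were not analysed here, so signal from the tagged protein and signal from chromatin tagged without it cannot be told apart. Peaks carry no RNA level, and the LSK label could not be checked against expression of its markers.

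Bcl11a is a zinc finger transcription factor that recruits repressor complexes to DNA. It is known for silencing fetal globin genes in red cell precursors and for its need in lymphoid development and in blood stem cells. LSK cells, which lack lineage markers and carry Sca-1 and Kit, are the bone marrow fraction that holds stem cells and early progenitors. In CUT&Tag an antibody brings a transposase to a chromatin protein, and the transposase inserts adapters into the DNA beside it. A peak is called where fragments pile up over a local background beyond a threshold.

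The promoters below belong to genes whose ends were reached by single-library regions and by no shared region. An end counted as reached when the summit of a region lay within 1 kb, so the edge of a shared region can lie closer. They were chosen to show members of each library and the range from CpG-rich to CpG-poor starts. Each is the RefSeq window of 250 bases before and 50 bases after an annotated start, written 5′ to 3′ on the gene's strand. Capitals mark matches to a CpG-rich motif, CGCG, on either strand. They also mark the motif bound by BCL11A zinc fingers, TGACCA, and the motif of GATA factors, which is GATAAG, with the complement of each. The CpG motif reads the same on both strands and may share 1 base with the GATA motif. A match describes the letters in the window and nothing more. Library 1 alone had a peak over all or part of the first pair, library 2 over the next 3 and library 3 over Ankrd26, while the Foxo1 window held separate peaks of libraries 3 and 2.
Rnf113a1, a RING finger protein of the splicing machinery, reached by library 1 (chrX:37190972-37191271, GRCm38.p6, plus strand): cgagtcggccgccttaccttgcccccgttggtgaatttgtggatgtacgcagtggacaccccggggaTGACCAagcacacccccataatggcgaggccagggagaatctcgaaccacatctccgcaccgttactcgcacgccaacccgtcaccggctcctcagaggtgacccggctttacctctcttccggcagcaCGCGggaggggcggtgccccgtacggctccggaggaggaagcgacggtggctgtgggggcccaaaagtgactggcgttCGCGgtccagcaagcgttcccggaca
Vpreb1, part of the surrogate light chain of the pre-B cell receptor, reached by library 1 (chr16:16869206-16869505, GRCm38.p6, minus strand): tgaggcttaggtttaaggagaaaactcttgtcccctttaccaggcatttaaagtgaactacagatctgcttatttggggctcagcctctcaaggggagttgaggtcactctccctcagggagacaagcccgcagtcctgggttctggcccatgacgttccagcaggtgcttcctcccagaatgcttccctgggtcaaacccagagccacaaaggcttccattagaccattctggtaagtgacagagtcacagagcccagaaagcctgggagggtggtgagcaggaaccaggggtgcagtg
Hlf, a PAR bZIP factor of blood stem cells, reached by library 2 (chr11:90390868-90391167, GRCm38.p6, minus strand): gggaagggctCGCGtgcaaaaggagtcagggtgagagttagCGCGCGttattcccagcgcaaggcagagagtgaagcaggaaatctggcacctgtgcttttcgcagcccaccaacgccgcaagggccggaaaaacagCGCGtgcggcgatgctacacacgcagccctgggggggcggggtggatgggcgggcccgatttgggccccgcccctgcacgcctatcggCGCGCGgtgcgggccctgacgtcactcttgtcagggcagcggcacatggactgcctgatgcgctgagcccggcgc
Epb42, a red cell membrane protein, reached by library 2 (chr2:121036828-121037127, GRCm38.p6, minus strand): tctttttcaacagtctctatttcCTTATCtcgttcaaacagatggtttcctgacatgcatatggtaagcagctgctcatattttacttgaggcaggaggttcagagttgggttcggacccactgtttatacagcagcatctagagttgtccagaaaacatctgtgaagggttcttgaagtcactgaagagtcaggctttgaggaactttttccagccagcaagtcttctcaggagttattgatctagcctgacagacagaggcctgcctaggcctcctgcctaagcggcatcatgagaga
Gp1ba, a platelet receptor chain for von Willebrand factor, reached by library 2 (chr11:70638872-70639171, GRCm38.p6, plus strand): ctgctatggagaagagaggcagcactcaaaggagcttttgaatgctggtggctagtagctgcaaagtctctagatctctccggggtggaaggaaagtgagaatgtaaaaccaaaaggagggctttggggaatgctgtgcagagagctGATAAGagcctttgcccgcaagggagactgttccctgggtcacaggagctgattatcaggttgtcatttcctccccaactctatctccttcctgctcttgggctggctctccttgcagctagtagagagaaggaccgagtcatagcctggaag
Ankrd26, an ankyrin repeat protein, reached by library 3 (chr6:118562222-118562521, GRCm38.p6, minus strand): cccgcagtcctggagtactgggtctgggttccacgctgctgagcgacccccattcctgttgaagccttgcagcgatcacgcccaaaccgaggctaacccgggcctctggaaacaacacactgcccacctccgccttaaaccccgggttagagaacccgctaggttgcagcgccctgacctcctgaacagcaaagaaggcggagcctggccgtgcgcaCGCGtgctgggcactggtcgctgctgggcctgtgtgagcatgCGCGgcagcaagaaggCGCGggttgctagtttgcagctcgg
Foxo1, a forkhead factor needed in B cell development, reached by library 3 and, in a separate peak, by library 2 (chr3:52268087-52268386, GRCm38.p6, plus strand): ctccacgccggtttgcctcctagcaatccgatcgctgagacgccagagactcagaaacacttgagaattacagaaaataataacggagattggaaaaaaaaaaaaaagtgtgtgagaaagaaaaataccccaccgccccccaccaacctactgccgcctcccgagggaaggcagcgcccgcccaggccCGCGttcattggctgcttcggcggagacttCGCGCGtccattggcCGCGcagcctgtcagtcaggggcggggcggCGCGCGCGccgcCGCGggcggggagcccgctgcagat
The Hlf window held 30 CpG dinucleotides, the Foxo1 window 31 and the Rnf113a1 window 29. The Vpreb1 window held 2 CpG and the Epb42 and Gp1ba windows 3 each. GATAAG or its complement stood in the windows of Epb42 and Gp1ba, and TGACCA in that of Rnf113a1.

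Single-library regions were the weak end of each list. Among the peaks of libraries 1, 2 and 3, 23.2%, 18.2% and 28.5% stood alone. They covered 2236, 2001 and 4153 kb, which was 13.6%, 10.3% and 17.6% of the length each library covered. Their median fold enrichment, the summit pileup over the local background as the authors' caller gave it, was 4.14, 4.02 and 3.73 in libraries 1, 2 and 3. Peaks of the same libraries in regions of all 3 had medians of 6.30, 6.38 and 6.02, and those in regions of 2 libraries lay between, at 4.52, 4.44 and 4.18. Here and in later comparisons of members with shared regions, only the strongest peak of a library in each region was counted.

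The fragments behind a member were few. The summit pileup, solved from the deposited fold enrichment and p-value, had a median of 9, 10 and 13 fragments in single-library regions of libraries 1, 2 and 3, against 20, 26 and 31 in regions of all 3 libraries. The lowest pileup of a member was 6, 7 and 8 fragments. The library background was 1.07, 1.41 and 1.95 fragments per base. Library 3 had the highest background and the most members, but library 1, with the lowest background, had more members than library 2. With each list held to its 30000 strongest peaks, the members numbered 5295, 4881 and 5125, so that library 3 no longer had the most.

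Members were also narrow. Their median width was 219, 271 and 301 bp, against 475, 594 and 644 bp for peaks in regions of all 3 libraries. The shortest peak of each library was 174, 199 and 221 bp, and 49.0%, 39.5% and 39.5% of the members were no more than 25% longer than that. In regions of all 3 libraries that share was 6.36%, 4.57% and 4.61%. Lengths near the shortest were thus common among members and rare among shared regions.

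The share of peaks that stood alone fell steeply with the −log10 q of the peak. Only the strongest peak of a library in each region was counted, so weaker second peaks of shared regions were left out. Below 2, 72.8%, 69.7% and 79.3% of these peaks of libraries 1, 2 and 3 were single-library regions. Between 5 and 10 the shares were 13.3%, 11.7% and 24.4%. Between 10 and 20 they were 1.13%, 0.960% and 2.57%. Members at a −log10 q of 5 or more were 16.6%, 18.3% and 25.9% of all members, against 81.6%, 86.8% and 90.6% of peaks in regions of all 3 libraries.

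**Figure D1:**
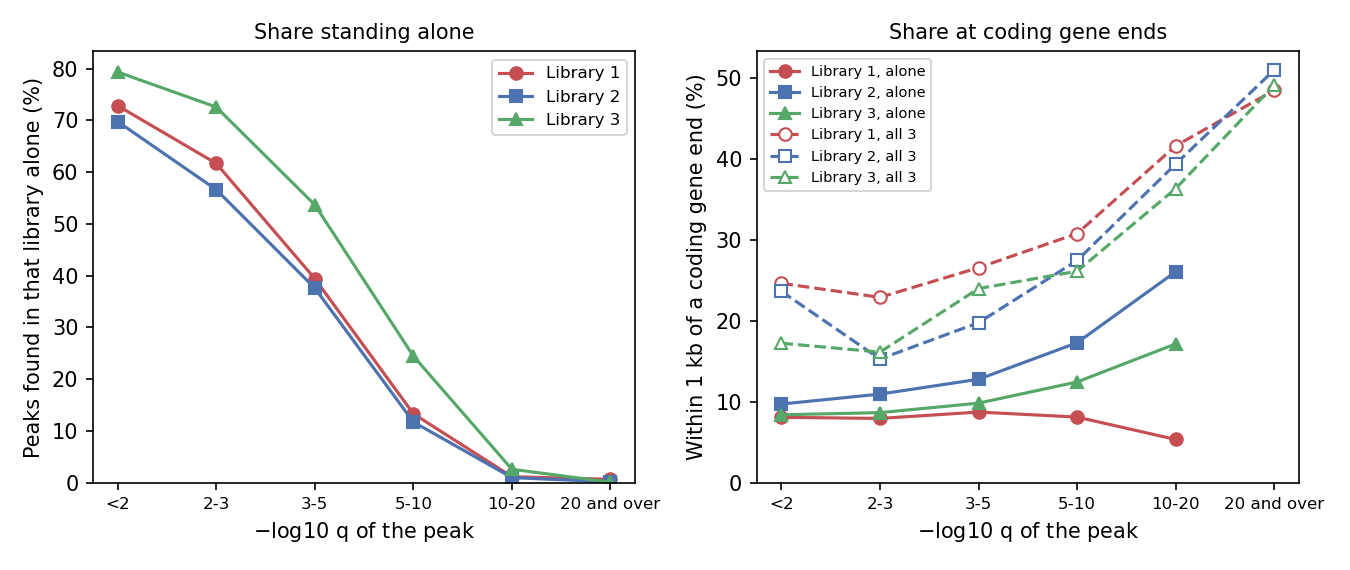
Left, the percentage of a library's peaks that stood alone (vertical axis) by the −log10 q of the peak (horizontal axis), falling from 72.8%, 69.7% and 79.3% below 2 to under 1% at 20 and over. Right, the percentage of peaks with a summit within 1 kb of a protein-coding gene end, for peaks found alone (filled, solid) and peaks in regions of all 3 libraries (open, dashed). The lines of peaks found alone stop at 10 to 20, where they rest on 75, 69 and 204 peaks of libraries 1, 2 and 3. Both panels count only the strongest peak of a library in each region.

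Members just inside the membership rule had a lower median fold enrichment than peaks just outside it in 3 of 3 libraries, with no test made. Members whose nearest peak of another library began within 50 bp numbered 143, 117 and 139, with a median −log10 q of 3.18, 3.22 and 3.58. Peaks of 2-library regions that overlapped their partner by 1 to 50 bp numbered 231, 209 and 262, with medians of 3.18, 3.54 and 3.66. Their median fold enrichments were 4.07, 3.81 and 3.67 just inside the rule and 4.20, 4.12 and 3.79 just outside it. Within 500 bp of another library's peak lay 895, 839 and 1114 members (9.95%, 12.6% and 9.01%), so most members had no near miss beside them.

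Gene ends held more single-library regions than their share of the genome, and far fewer than they held of shared regions. A region was placed at an end when its summit lay within 1 kb of an outer end of a protein-coding gene in RefSeq. That was so for 741 members of library 1 (8.24%), 855 of library 2 (12.9%) and 1254 of library 3 (10.1%), a mean of 10.4% ± 2.34 (SD, n = 3). Peaks of the same libraries in regions of all 3 were at coding gene ends in 36.9%, 37.1% and 36.9% of cases. In regions of 2 libraries the shares were 13.9%, 18.8% and 16.9%. The difference of members from regions of all 3 libraries was -26.6 percentage points ± 2.24 (SD, n = 3), lower for members in 3 of 3 libraries. The regions of all 3 libraries are 1 set, the same in each library but for that library's own summits. The SD of this and later differences from them is therefore mainly that of members. The exact sign-flip permutation test over libraries gave p = 0.25 (two-sided), the smallest p that 3 libraries allow.

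Sliding the members along their chromosomes to every position gave the share that position alone would put at coding gene ends. It was 3.21%, 3.26% and 3.23% for libraries 1, 2 and 3, so the observed shares were 2.56, 3.95 and 3.14 times as high. Over positions outside shared regions, where alone a member can lie, the ratios were 2.86, 4.41 and 3.50. Members moved by 50 kb, 100 kb or 1 Mb to either side were still at coding ends in 4.27% to 5.51% of cases for library 1, 4.78% to 6.22% for library 2 and 4.63% to 5.74% for library 3. The observed share exceeded each of those values in its own library. For regions of all 3 libraries the ratio to all positions was 11.3 in each library.

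Starts of genes, not finishes, carried the shortfall against shared regions. Over the genes with a stranded start in the promoter table, which held none of chromosome 18, 4.93%, 9.60% and 7.01% of members lay within 1 kb of a start. For regions of all 3 libraries the share was 33.6%, 33.5% and 33.5%. At finishes alone, members were at 2.43%, 2.35% and 2.37%, against 1.79%, 1.82% and 1.79% for regions of all 3 libraries. The finish share of members was thus higher by 0.585 percentage points ± 0.0524 (SD, n = 3), in the opposite direction from starts (exact sign-flip permutation p = 0.25 for each, the smallest possible). A region within 1 kb of a start was not counted at a finish. A set with fewer regions at starts therefore has more that can count, and the difference cannot show an excess at finishes. Regions of 2 libraries had finish shares of 2.32%, 2.64% and 2.35%. All positions gave 1.57% for starts and 1.29% for finishes in library 1, and the share of members was 3.14 and 1.89 times as high.

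**Figure D2:**
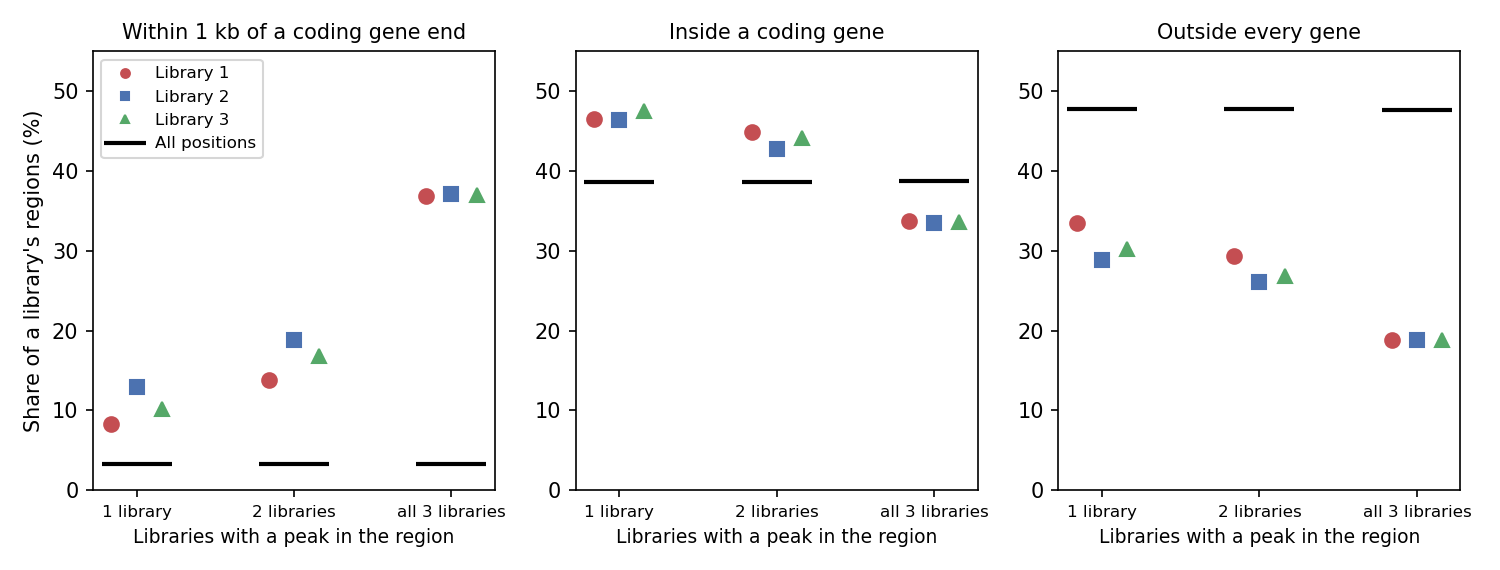
Percentage of a library's regions (vertical axis) with the summit within 1 kb of a protein-coding gene end, inside such a gene, or outside every annotated gene, for regions of 1, 2 and all 3 libraries (horizontal axis). Points are libraries and black bars are the shares of all positions. Each region counts in 1 place only, with ends first. Members sit near 8% to 13% at ends, against about 37% for regions of all 3 libraries, and lie above the bar inside coding genes where regions of all 3 libraries lie below it.

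Away from gene ends, single-library regions lay inside genes more often and between genes less often than positions at large. Inside protein-coding genes were 46.6%, 46.4% and 47.5% of the members, against 33.7%, 33.5% and 33.7% of regions of all 3 libraries and 38.6% to 38.8% of positions. Outside every annotated gene were 33.4%, 28.8% and 30.2% of members, against 18.8%, 18.8% and 18.9% of regions of all 3 libraries and about 47.8% of positions. Members exceeded regions of all 3 libraries by 13.2 ± 0.567 points inside coding genes and by 11.99 ± 2.40 points outside genes (SD, n = 3, higher in 3 of 3 libraries, exact sign-flip permutation p = 0.25 for each, the smallest possible). Each region counted in 1 place only, with ends first. The lower end share of members leaves more of them for the other places, so these excesses cannot be told apart from that shortfall. Regions of 2 libraries had 44.9%, 42.8% and 44.2% inside coding genes. Ends of non-coding and other genes held 4.81%, 5.31% and 5.77% of members, against 6.19%, 6.21% and 6.20% of regions of all 3 libraries.

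The libraries differed in how gene ends went with strength. Among members of library 2, the share at coding gene ends was 9.72% at a −log10 q below 2, 17.3% between 5 and 10 and 26.1% (18 of 69) between 10 and 20. In library 3 the same classes had 8.39%, 12.4% and 17.2% (35 of 204). In library 1 they had 8.07%, 8.10% and 5.33% (4 of 75), with no such rise. The exact binomial 95% intervals of these last shares, which cover counting error only, were 1.47% to 13.1% in library 1, 16.3% to 38.1% in library 2 and 12.3% to 23.0% in library 3. The members of library 1 at gene ends had a median pileup of 9 fragments and those elsewhere 9. In library 2 the medians were 12 and 10 fragments. Whether the low shares of library 1 came with its shallower coverage was not tested.

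Promoters that only single-library regions touched were intermediate in CpG content. Of the 21262 starts of coding genes in the promoter table, 955 windows were overlapped by a single-library region and by no shared region. Their median CpG count was 16 in 300 bases, against 19 in the 1007 windows whose best region had 2 libraries, 23 in the 8976 overlapped by a region of all 3 libraries, 4 in the 10324 with no region and 13 over all. By library, each window counted once under its strongest member, the medians were 16, 18 and 13 in the 178, 356 and 421 windows of libraries 1, 2 and 3. The letters CGCG stood in 61.3% of the member windows, against 65.1% of 2-library windows, 78.7% of windows of all 3 libraries and 20.9% of windows without a region.

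The other motifs did not set these windows apart in the same way. TGACCA stood in 11.6% of the member windows, against 8.14%, 11.2% and 14.1% in windows of 2 libraries, of all 3 and without a region, and in 12.5% of all windows. GATAAG stood in 5.65% of member windows, against 5.36%, 4.11% and 9.63% in the same order, and in 6.92% of all. No adjustment was made for base composition, which differed between these sets. Only promoter windows were searched, since no genome sequence was given for the regions themselves.

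Single-library regions gathered around the shared ones. The median distance from a member to the nearest region of all 3 libraries was 21.3 kb in library 1, 15.5 kb in library 2 and 16.4 kb in library 3. All positions of the same chromosomes, weighted alike, had medians of 101, 99.2 and 99.98 kb. Within 10 kb of such a region were 30.8%, 37.9% and 36.4% of the members, and within 100 kb 78.9%, 85.3% and 84.0%. For comparison, regions of 2 libraries had medians of 14.5, 12.7 and 13.1 kb. Members moved by 50 kb to either side had medians of 23.7 and 23.8 kb in library 1, 18.7 and 18.5 kb in library 2 and 19.9 and 19.3 kb in library 3. Moved by 1 Mb, the medians were between 37.8 and 45.4 kb. Members stayed near shared regions when moved by 50 kb, and less so when moved by 1 Mb.

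**Figure D3:**
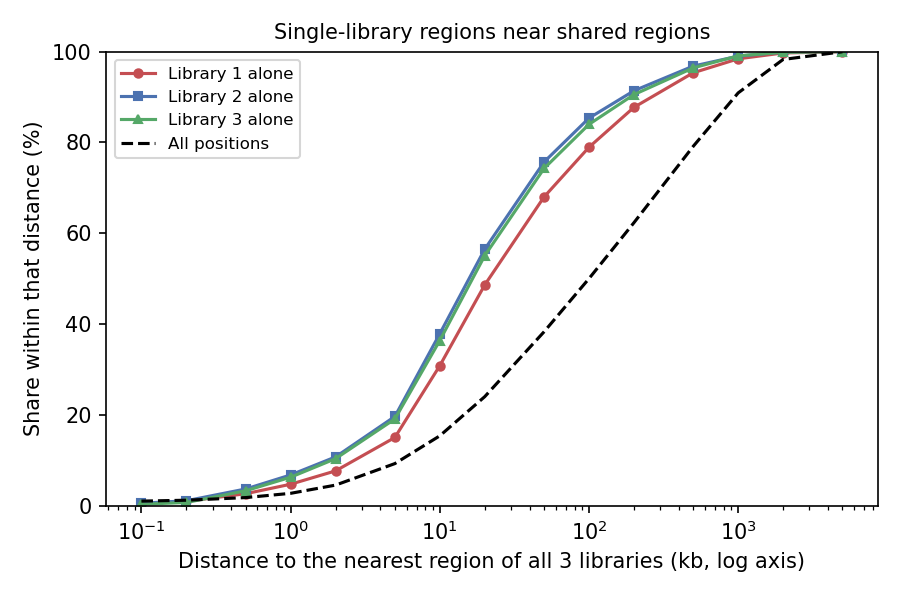
Cumulative percentage of single-library regions (vertical axis) within a given distance of the nearest region of all 3 libraries (horizontal axis, kb, log scale), for each library, with all positions dashed. At 10 kb the libraries stand at 30.8%, 37.9% and 36.4%, and all positions at 15.4%. The dashed line includes positions inside shared regions, where no member can lie.

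The same broad stretches held the members of every library. Over 2672 bins of 1 Mb, the number of members per bin had a Spearman correlation of 0.73 to 0.79 between libraries and of 0.76 to 0.81 with the number of regions of all 3 libraries. Bins share gene density and mappability, so these are descriptions of the chromosomes and not of independent points. The 672 bins without any region of all 3 libraries held 468, 244 and 481 members, or 5.20%, 3.68% and 3.89% of each library's members. The nearest member of another library was a median of 25.3 to 63.9 kb away, and the nearest member of the same library 50.5, 57.8 and 29.9 kb.

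By chromosome, members were densest on chromosome 11 and sparse on the sex chromosomes. On the autosomes there were 3.71, 2.73 and 5.10 members per Mb in libraries 1, 2 and 3. Chromosome 11, which also had the most regions of all 3 libraries per Mb, had 5.47, 4.48 and 7.77. Chromosome 3 had the fewest among autosomes, with 2.51, 1.61 and 3.05. The X chromosome held 85, 67 and 112 members, or 0.51, 0.40 and 0.67 per Mb, and the Y chromosome held 5, 3 and 8.

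The X chromosome was poorer in members than in regions of all 3 libraries, each relative to autosomes. Members per Mb on X over autosomes came to 0.137, 0.146 and 0.131, a mean of 0.138 ± 0.00766 (SD, n = 3), against 0.188 for regions of all 3 libraries. The ratio was lower for members than for regions of all 3 libraries in 3 of 3 libraries (exact sign-flip permutation p = 0.25, the smallest possible). Regions of 2 libraries had 0.200, 0.151 and 0.156, so in library 2 they hardly differed from members. Of the regions on X that held a peak of the given library, 18.6%, 15.5% and 22.8% were single-library regions. On autosomes the shares were 24.1%, 18.4% and 28.8%. RefSeq lists 5.74 coding genes per Mb on X and 8.55 on autosomes. The number of X chromosomes in the cells was not used, and its part in these values was not tested.

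**Figure D4:**
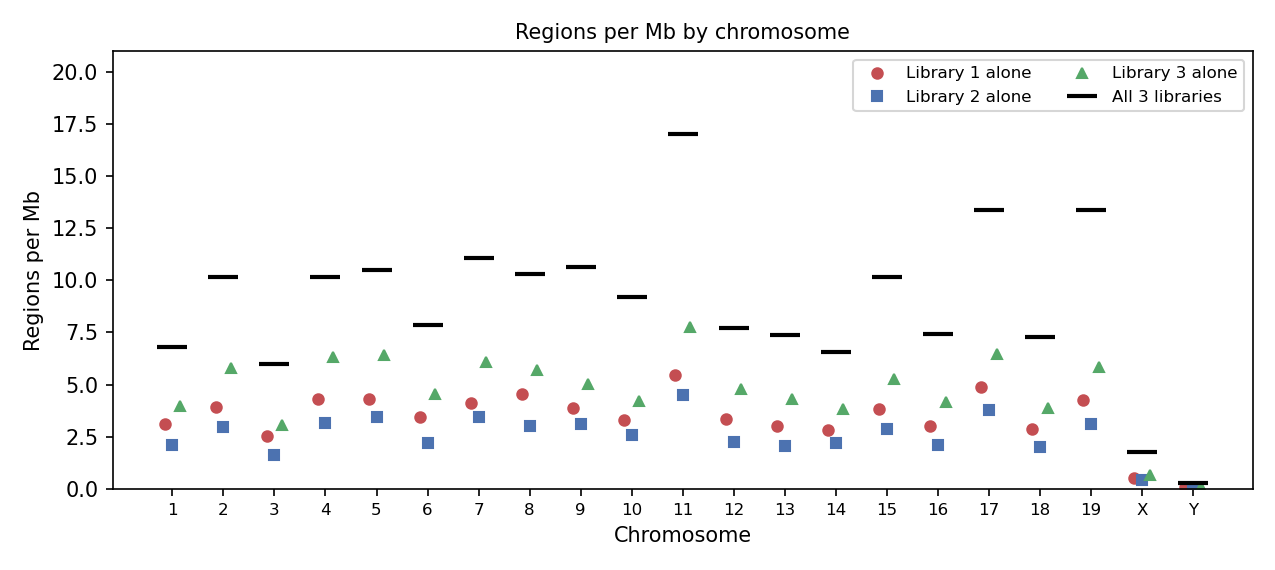
Regions per Mb (vertical axis) on each chromosome (horizontal axis) for single-library regions of libraries 1, 2 and 3 (coloured points) and for regions of all 3 libraries (black bars). Chromosome 11 is highest for each, with 5.47, 4.48 and 7.77 members per Mb, and X and Y are lowest.

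A small share of genes depended on single-library regions for their only peak at an end. Of 21770 protein-coding genes, 1702 had an end reached by single-library regions and by no shared region, 7.82% of all. Library 1 alone accounted for 378 (1.74%), library 2 for 492 (2.26%) and library 3 for 683 (3.14%), and members of several libraries for 149. An end of 9361 genes (43%) was reached by a region of all 3 libraries, 1368 (6.28%) had a 2-library region at best, and 9339 (42.9%) had none. With or without shared regions, 2806 genes (12.9%) had a member at an end. A gene reached by a shared region cannot depend on members alone. The share of a list in that state therefore falls as shared regions reach more of its genes. Of the coding genes without a shared region at an end, members reached 15.4%.

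Stem cell transcription factor genes were in this state about as often as all coding genes. Of 28 such genes, 2 (7.14%, against 7.82% of all coding genes) had their ends reached only by members, both in library 2, against 18 reached by regions of all 3 libraries. Among those without a shared region the share was 20%, with 8 genes reached by no region, against 15.4% over all coding genes. The genes reached only by members were Prdm16, a zinc finger factor needed to keep stem cells, and Hlf. The Prdm16 region (chr4:154636393-154637052) had a fold enrichment of 3.07 over a pileup of 25 fragments and lay 0.311 kb from a region of all 3 libraries. The Hlf region (chr11:90390627-90391059), which overlaps the promoter printed above, had 4.40 over 12 fragments, with the nearest peak of another library 7.77 kb away.

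Of 25 surface genes of stem cells and their neighbours, 4 (16%, against 7.82% of all coding genes) were reached only by members. Among those without a shared region the share was 36.4%, with 7 genes reached by no region, against 15.4% over all coding genes. Il1rl1, the receptor for interleukin 33, had a library 2 region of fold 6.08 (pileup 16). Cdh5, an adhesion protein of endothelium, had a library 3 region of 4.63 (pileup 15). Vwf, a clotting factor expressed in platelet-biased stem cells, and Ly6a, which encodes the Sca-1 antigen used in the sort, had library 2 regions of 4.55 (pileup 11) and 3.74 (pileup 12).

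Lymphoid genes had 6 of 29 in this state (20.7%, against 7.82% of all coding genes), with Foxo1 and Cd79b reached by members of libraries 2 and 3 at separate spots. Of lymphoid genes without a shared region members reached 30%, with 14 reached by no region, against 15.4% over all coding genes. At Foxo1 the library 3 peak (chr3:52267929-52268234, fold 4.39, pileup 23) and the library 2 peak (chr3:52268266-52268493, fold 3.78, pileup 13) lay 31 bp apart. They lay 0.559 and 0.3 kb from a region of all 3 libraries, which did not count as reaching the end by its summit. At Cd79b, a signalling chain of the B cell receptor, the peaks of libraries 3 and 2 lay 485 bp apart. Cd3e, a chain of the T cell receptor complex, had a library 3 region of fold 4.95, and Vpreb1 a library 1 region of 4.30.

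Myeloid genes had 4 of 30 (13.3%) and erythroid and megakaryocyte genes 5 of 30 (16.7%), against 7.82% of all coding genes. Among those without a shared region the shares were 21.1% and 29.4%, against 15.4% over all coding genes. No region reached 15 and 12 genes of these lists. Cd14, a lipopolysaccharide co-receptor, had a library 3 region of fold 6.06, and Adgre1, which encodes the F4/80 antigen, one of 5.77. Mmp9, a matrix protease of neutrophils, had 4.32 in library 3 and Csf1r, the receptor for M-CSF, 4.12 in library 2. Among red cell and platelet genes, Epb42 had 4.99, Gp1ba 4.42 and Vwf 4.55, all in library 2. Slc4a1, the band 3 anion exchanger, had 3.90 in library 3.

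Genes tied to Bcl11a and subunits of its corepressors had 1 gene each in this state, or 4% and 3.33%, against 7.82% of all coding genes. Of 25 tied genes it was Ebf1, a factor of early B cells, with a library 3 region of fold 3.18. Of 30 corepressor subunits it was Rcor3, with a library 3 region of fold 4.10 and pileup 28 that lay 0.286 kb from a region of all 3 libraries. Of 30 cell cycle genes 0 were in this state. Ribosomal protein genes had 3 of 87 (3.45%), proteasome genes 4 of 40 (10%), complex I genes 5 of 40 (12.5%) and interferon genes 2 of 31 (6.45%), with the interferon and proteasome shares near that of all genes. Shared regions left few genes of some lists to members: of the corepressor subunits, 24 had a region of all 3 libraries and 3 a 2-library region at best. Among genes without a shared region, members reached 8.33% of tied genes, 33.3% of corepressor subunits and 0% of cell cycle genes. They reached 18.8% of ribosomal, 57.1% of proteasome, 71.4% of complex I and 25% of interferon genes, against 15.4% over all coding genes. These shares rest on few genes. Reached by no region at all were 11 tied genes, 2 corepressor subunits and 3 cell cycle genes. The same held for 13 ribosomal, 3 proteasome, 2 complex I and 6 interferon genes. At the complex I gene Ndufb3, peaks of libraries 1 and 2 lay 28 bp apart.

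Markers of other cell types were reached by members as well. Stromal and endothelial genes had 7 of 25, muscle genes 5 of 20, neuronal genes 4 of 27 and hepatocyte genes 2 of 22, where the share over all coding genes was 7.82%. Among genes without a shared region, members reached 41.2%, 29.4%, 17.4% and 11.8% of these lists. Over all coding genes that share was 15.4%, so the neuronal and hepatocyte shares were near it. No region reached 10, 12, 19 and 15 genes of the 4 lists. The stromal genes of highest −log10 q were Eng, an endothelial TGF-beta co-receptor, Cdh5 and Col1a1, a collagen chain, in library 3, and Pecam1, an endothelial adhesion protein, in library 2. Kitl, which encodes the ligand of Kit, had members of libraries 1 and 3 that lay 426 bp apart. The markers themselves were chosen as genes of those cell types, not as genes without peaks in LSK cells. Keratin and keratin-associated genes had 6 of 112, 5 of them in library 1, and olfactory receptor genes 13 of 1109 (1.17%), 8 of them in library 1. Genes that rise in aged stem cells had 5 of 31, among them Plscr2 and Ehd3. Among those without a shared region the aged list had 31.25%, with 11 genes reached by no region. The keratin and olfactory lists had 5.61% and 1.18% by that measure. A region at an end is no measure of expression, and no test of these lists was made.

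Most members lay away from gene ends, and they were dense around stem cell transcription factors. A distal member had its summit over 1 kb from every coding gene end and was given to the nearest coding gene within 100 kb. By this rule 9203 genes (42.3%) had a distal member. The 28 transcription factor genes had 33, 39 and 65 distal members in libraries 1, 2 and 3, at 34.8 per Mb of the stretches nearest to them in all, against 13.3 per Mb over all coding genes. The ratio to all coding genes was 1.98, 3.20 and 2.78, a mean of 2.65 ± 0.62 (SD, n = 3). For regions of all 3 libraries it was 3.23. Runx1, a factor needed to found the blood system, had 19 distal members (5, 6 and 8), Foxo3 14, and Prdm16 and Erg 11 each. With members held to a −log10 q of 5 or more the ratios were 0.38, 5.10 and 3.84, and with all lists held to it 0.83, 4.69 and 3.10, so library 1 was below 1 under both. Library 1 then had 1491 and 2693 members in all. Its ratios near these 28 genes therefore rest on few regions.

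Lists of blood lineage genes and of several cell functions stood above all coding genes in distal members in the mean over libraries, and genes of aged stem cells stood below. The ratio to all coding genes was 2.03 ± 0.56 for myeloid genes, 1.82 ± 0.18 for cell cycle genes, 1.81 ± 0.29 for corepressor subunits, 1.66 ± 0.48 for lymphoid genes and 1.43 ± 0.49 for erythroid and megakaryocyte genes (SD, n = 3 libraries). For regions of all 3 libraries those lists had 4.28, 2.66, 2.34, 2.62 and 3.38, each above its value for members. Genes tied to Bcl11a went the other way by less than the SD, with 1.68 ± 0.40 for members and 1.58 for regions of all 3 libraries. Muscle genes had 1.76 ± 0.32 for members, from 7, 6 and 8 regions, against 0.52 for the 4 regions of all 3 libraries. Pax7, a factor of muscle stem cells, held 8 of those 21 members. Neuronal genes had 0.73 ± 0.37 and olfactory receptor genes 0.18 ± 0.02, against 0.63 and 0.08 for regions of all 3 libraries. Genes of aged stem cells had 0.87, 0.64 and 0.58 in libraries 1, 2 and 3, and ribosomal protein genes 1.52 ± 0.27 (SD, n = 3). Single libraries fell below 1 in several lists with a mean above it. Stem cell surface genes had 0.94 in library 2, and erythroid and megakaryocyte genes and proteasome genes had 0.93 and 0.90 in library 1. Complex I genes had 0.94 and 0.86 in libraries 2 and 3, and keratin genes 0.79 and 0.91. Stromal and endothelial genes had 0.71 and 0.83 in libraries 1 and 3, and hepatocyte genes 0.79 in each of these.

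**Figure D5:**
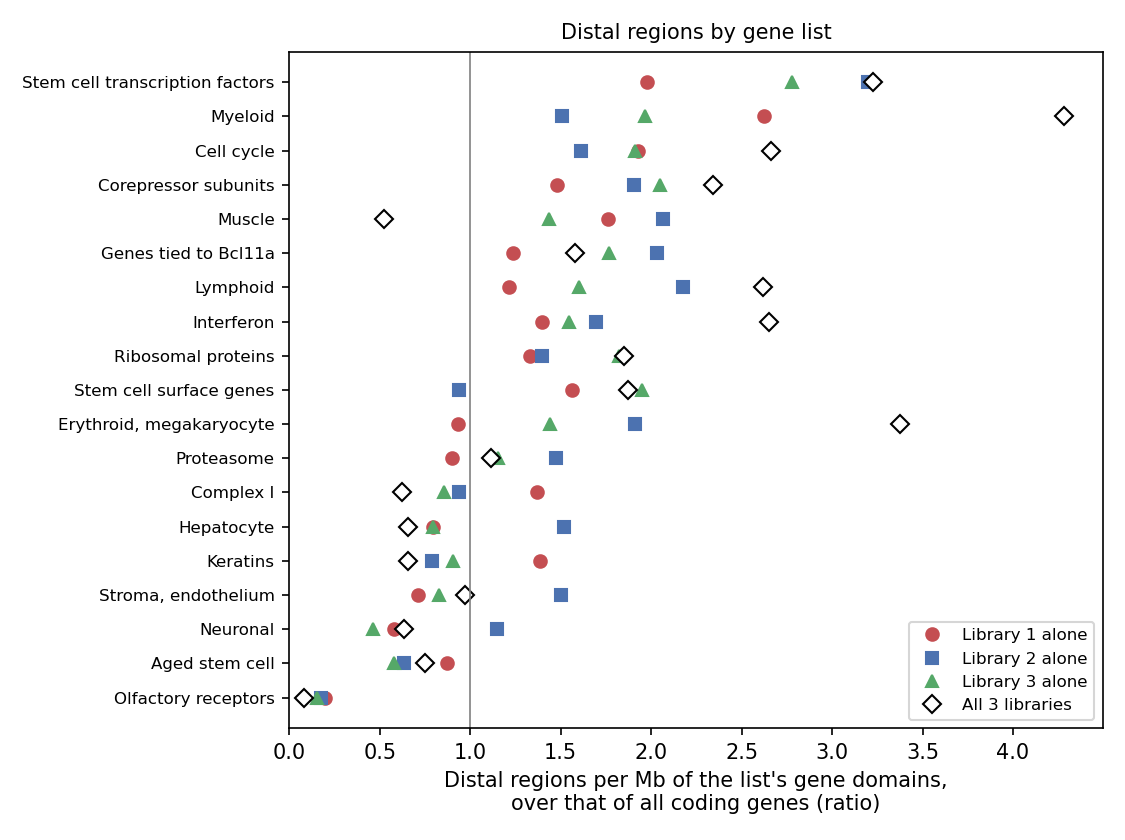
Distal regions per Mb of the stretches nearest to a list's genes, over the same for all protein-coding genes (horizontal axis, ratio), for single-library regions of each library (coloured points) and regions of all 3 libraries (open diamonds), with a grey line at 1. Stem cell transcription factors stand at 1.98, 3.20 and 2.78 and olfactory receptors at 0.20, 0.17 and 0.16. Muscle genes are the only list among those above 1.5 in the mean whose diamond lies below 1.

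The Bcl11a gene itself (chr11:24076564-24173558, GRCm38) was tied with Bmp7 for the most distal members of 21770 coding genes. It had 4 from library 1, 6 from library 2 and 10 from library 3, 20 in all, beside 10 distal regions of all 3 libraries. Bmp7, a secreted growth factor, had 7, 3 and 10 beside 1 distal region of all 3 libraries. Med13l and Runx1 followed with 19 each. Genes with 10 or more distal members numbered 130 (0.597%). The stretch nearest to Bcl11a is long, at 283.6 kb, which gave 7.05 members per 100 kb, against 10.7 at Bmp7.

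The 20 Bcl11a members were of modest strength. Their fold enrichments ran between 2.94 and 5.22 and their pileups between 8 and 25 fragments. Inside the gene lay 10 of them, and the closest to an end was a library 2 peak 2498 bp beyond the higher-coordinate end (chr11:24175972-24176370). Library 3 had a run of 3 peaks inside the gene, at chr11:24127793-24128114, chr11:24129802-24130101 and chr11:24131918-24132257, with pileups of 25, 23 and 25 fragments, above the median of 13 for members of that library. The folds of these 3 peaks were 3.77, 3.41 and 3.67, near or below that library's member median of 3.73. A library 1 peak (chr11:24130121-24130306, pileup 12) lay 19 bp from the middle peak of the run. Peaks of library 3 (chr11:24217750-24218159) and library 2 (chr11:24218242-24218623) beyond the gene lay 82 bp apart. The tag was inserted at this gene, and whether the insertion bears on the members there was not tested.

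Among coding genes with no shared region at an end, the strongest end members of each library are named in turn. In library 1 they lay at Nrp1, a semaphorin and VEGF co-receptor (fold 8.71, pileup 17), and at the shared end of Ndufa1, a complex I subunit, and Rnf113a1 (fold 7.74, pileup 15), a region 63.9 kb from any peak of another library. Bpifb2, Mxi1, an antagonist of Myc, and Gnao1, a G protein subunit, came next, with folds of 7.15, 4.76 and 7.23.

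By the same limit, library 2 had its strongest end members at Slc5a5, the sodium iodide symporter (fold 5.78, pileup 44), Arpp19, an inhibitor of the phosphatase PP2A (8.88, pileup 21), Dusp8, a MAP kinase phosphatase (5.08, pileup 36), and Phf6, an X-linked chromatin protein mutated in human leukaemia (8.31, pileup 19). Rin1, a Ras effector, and Cenph, a kinetochore protein, had 6.09 and 7.89. No peak of another library came within 33.1 kb of the Arpp19 region or within 75.6 kb of the Phf6 region.

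Library 3 had its strongest at Eya1, a transcriptional co-activator (9.17, pileup 26), with no peak of another library within 197 kb. Apoa2, an apolipoprotein, had 4.73 (pileup 48), Ankrd26 had 8.49 (pileup 24) over the whole promoter printed above, and Zkscan1, a zinc finger factor, and Iars, an aminoacyl-tRNA synthetase, had 8.15 (pileup 23) each. Sh3rf2 had 7.52. No gene of these 3 sets stood in more than 1 of them. Of the 1702 genes reached only by members, 149 had members of several libraries, so this follows largely from the membership rule. What the other libraries held below their thresholds at these sites was not analysed here.

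The strongest members of all were not at gene ends. At a −log10 q of 20 or more there were 34 members in library 1, 10 in library 2 and 6 in library 3, and 0 of them were at a coding gene end, which allows shares of up to 8.82%, 30% and 50%, against 48.5% or more of the peaks that strong in regions of all 3 libraries. They were narrow, with median widths of 190.5, 238.5 and 270 bp, and high, with median folds of 16.0, 11.4 and 9.62. The highest was a library 1 peak of 180 bp on chromosome 8 (chr8:102024596-102024775, fold 34.8, pileup 112), 607406 bp from the nearest coding gene end and 1386 kb from any peak of another library. In library 2 the highest lay 52300 bp from Cntnap5a, a neural adhesion gene (fold 14.96, pileup 35). In library 3 it lay 47937 bp from Il12a, a chain of interleukin 12 (fold 11.5, pileup 33), followed by one inside Tle1, a Groucho corepressor (6.82, pileup 45).

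Some of the strongest members lay beside very high local background. Of the 34 in library 1, 6 had a background over 10 fragments per base, as had 1 of the 6 in library 3, and each of these 7 lay within 2 kb of a region of all 3 libraries. The largest was on chromosome 2 (chr2:98665029-98665211), with a pileup of 994 fragments over a background of 388 and a fold of 2.56. A further 3 lay near the beginning of chromosome 9, the first at chr9:3004081-3004278 with a pileup of 489. Repeats and copy number were not analysed, and their part in these peaks was not tested. Leaving out every member with a background over 10 fragments left 27666 members, with 10.4% ± 2.34 (SD, n = 3) at coding gene ends.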

How the data were processed

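CUT&Tag libraries of Flag-tagged Bcl11a from LSK cells were given as 3 peak lists, each called on its own library. The submitters' processing notes name Bowtie2, SAMtools and MACS2 and the build mm10, without versions. The handling of duplicates and any filters are not given in these sources. For every peak the deposited lists give a fold enrichment (a ratio of pileup to local background), −log10 p and −log10 q values, a summit offset in bp and a score. The deposited score was 10 times −log10 q without its decimals in 100% of peaks and was not used.

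Peaks sharing 1 bp or more were merged (chromosomes 1 to 19, X and Y) with Python 3.11.15, numpy 2.4.6, pandas 2.3.3 and scipy 1.17.1. Pileup and background were solved from fold enrichment, taken as (pileup + 1)/(background + 1), and a Poisson tail, and 100% of pileups came out whole within 0.05. The median depth at a member's summit was 9 to 13 fragments. Intervals are exact binomial (Clopper-Pearson), and a count of 0 allows up to 3 counts, both for counting error only.

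Genes were 21770 coding genes of RefSeq for GRCm38.p6, the assembly behind mm10, by outer ends, after 348 genes on unlocalized scaffolds were left out. RefSeq promoter windows with strand covered 17491 of them. The expected share at gene ends is the exact mean over all circular shifts, that is, the share of all positions. All-position distances were sampled every 100 bp. The stretch nearest to a gene holds the positions over 1 kb from every coding gene end that lie nearest to it within 100 kb. Differences between sets of regions were tested over the 3 libraries by an exact sign-flip permutation test. The joining and placing steps were tested on simulated data. No gene expression was measured, and no motif search of the regions themselves was made, since no genome was given.

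Genes were named by rule: Bcl11a, the 6 coding genes per library at the strongest end members, the nearest gene of the 4 strongest distal members per library, and up to 4 genes per list in order of −log10 q, passing over predicted genes. Genes with members of several libraries and genes with the most distal members were named after their values were seen. The members and the lists were chosen with earlier results of these data known. Alternatives covered the joining rule, thresholds, equal list lengths, each library left out, the window and the gene set.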

Additional observations from a re-analysis of the deposited data

Results flagged for a closer look

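Peaks on mitochondrial DNA stood outside the regions described, which were joined on the autosomes, X and Y. Library 1 had 8 such peaks, library 2 had 7 and library 3 had 7, covering 7579, 9114 and 9025 bp of the mitochondrial genome. Their fold enrichments ran between 1.24 and 4.81 in library 1, 1.19 and 4.37 in library 2 and 1.29 and 4.95 in library 3. They are shown because they are signal in data that the comparisons did not use. No control library was analysed here to set them against.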

How the results depend on the processing

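No paired analysis was possible because the 3 libraries form 1 group and their numbers pair no samples across groups, while differences between sets of regions were taken within each library. The number of members, 27998, was 11794 with all lists held to a −log10 q of 5 or more, 5909 with members alone held to it, 15301 with the 30000 strongest peaks of each library, and 23989 to 28332 with each library left out in turn. The share at coding gene ends, 10.4%, was 15.6% when sharing needed a 50% reciprocal overlap, 15.2% with lists at 5 or more, 13.4% with equal lists, 3.73% within 250 bp, 20.6% within 3 kb, 15.7% for ends of all genes, 7.18% for starts of the promoter table (chosen after seeing the data), and 11.8% to 13.1% without each library. Its ratio to all positions, 3.22, was 4.82 under reciprocal overlap, 4.69 with lists and 3.96 with members at 5 or more, 4.15 with equal lists, 1.83, 1.96 and 2.21 against members moved by 50 kb, 100 kb and 1 Mb, and 3.64 to 4.03 without each library. The difference from regions of all 3 libraries, -26.6 points, was -23.3 under reciprocal overlap, -24.3 with members at 5 or more, -21.9 within 250 bp, and -22.2 to -22.1 without each library. The median distance to a region of all 3 libraries, averaged over libraries at 17.8 kb, was 22.6 kb with lists at 5 or more and 12.8 to 14.7 kb without each library, where the nearest region of the other 2 libraries was used. The mean of the median widths, 264 bp, was 336 bp with lists at 5 or more and 261 to 294.5 bp without each library. The X to autosome ratio, 0.138, was 0.151 under reciprocal overlap, 0.157 with lists at 5 or more, 0.159 with equal lists and 0.142 to 0.155 without each library. With members at 5 or more it was 0.185, 0.095 and 0.154 in libraries 1, 2 and 3. Library 1 thus came close to the 0.188 of regions of all 3 libraries. With equal lists the libraries had 0.134, 0.187 and 0.156. Coding genes reached only by members, 1702, numbered 517 with members at 5 or more and 1921 to 2279 without each library. The ratio of distal members near stem cell transcription factors, 2.65, moved by less than its SD under all 9 alternatives, with 2.43 to 2.83 without each library, but library 1 turned below 1 with all lists (0.83) and with members (0.38) at 5 or more. These library 1 values rest on few regions. The 20 members nearest Bcl11a numbered 7 and 6 under the stricter thresholds, 10 with equal lists and 13 to 17 without each library. Library 2 had the highest end share in 13 of 13 settings that used all 3 libraries, and library 1 the lowest in 12, the exception being reciprocal overlap. The cause of these moves was not tested.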
